A study of Mus musculus with 18 samples.

Results

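The cytosolic ribosomal protein genes described here are 76 genes, 31 of the small subunit and 45 of the large subunit, among the 25888 gene names of a mouse whole-genome array. They were chosen by name alone. A gene was a member if the array's annotation called it Rps or Rpl with a number, or Rplp0, Rplp1, Rplp2 or Rpsa. The Rps6k kinases and Rpl3l were left out. The members had 157 probes among 43426, and each gene was read through its brightest probe. The arrays hold RNA of thymus cells from C57BL/6 mice, taken 2 weeks after injection of an antibody against DLL4, the ligand through which thymic epithelium signals to Notch receptors on T-cell precursors, or of an isotype control antibody. There were 18 arrays in 6 groups. Total thymocytes gave 4 isotype and 3 anti-DLL4 arrays, sorted DN cells (lacking CD4 and CD8) gave 3 and 3, and sorted DN1 cells (the CD44+CD25- part of the DN cells) gave 2 and 3. The description of the series counts 4 animals per antibody and 3 isotype thymocyte samples, whereas the labels list 4, and all 4 were used. No label ties an array to an animal, so p-values measure the spread between these samples, which may share animals.

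A cytosolic ribosome has a small subunit, which reads the mRNA, and a large subunit, which joins the amino acids. Ribosomal protein genes are transcribed at high and matched rates in all cells, and their mRNAs are translated together because they begin with a run of pyrimidines, the 5′ terminal oligopyrimidine or TOP motif, through which mTOR signalling acts on translation. In thymocytes, growth and division around β-selection need high ribosome output, and loss of some members, Rpl22 above all, has been linked to T-cell development through p53.

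Annotated promoter starts were searched for such a run. RefSeq promoter windows of 300 bases (assembly GRCm38.p6, 250 before and 50 after each start) were found for 56 of the 76 members. In 13 of these 56 (23.2%), the annotated start was a C followed by at least 4 more C or T bases on the coding strand. Of all 27025 gene symbols with such a window, 813 (3.01%) had this start. Allowing the run to begin within 5 bases of the annotated start raised the counts to 26 of 56 members (46.4%) and 21.2% of all symbols. The starts of 8 members are shown because they carry the run that defines TOP mRNAs. Each is 30 bases, 15 before and 15 from the annotated start on, with the pyrimidine run at the start in capitals.
Rps6: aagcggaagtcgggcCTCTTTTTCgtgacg
Rps18: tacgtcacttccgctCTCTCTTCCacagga
Rps10: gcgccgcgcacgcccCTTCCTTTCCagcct
Rplp2: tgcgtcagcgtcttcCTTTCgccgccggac
Rpl15: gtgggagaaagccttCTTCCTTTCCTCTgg
Rpl28: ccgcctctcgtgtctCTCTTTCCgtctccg
Rpl35: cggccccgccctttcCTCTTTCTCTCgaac
Rpl38: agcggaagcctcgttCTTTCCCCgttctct

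In the same windows, searched on both strands, the ETS-type motif CCGGAAG lay in 23 of 56 members (41.1%) and in 9.93% of all symbols. The YY1-type motif AAGATGGC lay in 5 members (8.93%) and in 3.19% of all symbols. The TATA box TATAAA lay in 6 members (10.7%) and in 15.7% of all symbols. The 13 members with the pyrimidine start and the 43 matched members without it had similar spreads over the arrays. The median SD, on the centred scale described below, was 0.293 and 0.342 log2 units. A match of letters describes these windows and is no measured binding site.

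Values are log2 of the processed signal minus log2 of array strength, the 75th percentile of the signals of all spots other than controls on that array. Signal depends on the probe, so levels are compared between arrays for a gene and not between genes. Array strength ran from 260.2 in isotype DN replicate 1 to 4295 in anti-DLL4 thymocyte replicate 1. It spanned 260.2 to 675.5 in isotype DN cells and 741.3 to 1077 in anti-DLL4 DN cells, without overlap, and overlapped between antibodies in thymocytes and DN1 cells. Of the members, 74 were well above background on all 18 arrays. The remaining pair, Rpl7 and Rpl28, were well above background on 17 and lacked a value on 1 array each, an isotype thymocyte array and an anti-DLL4 DN1 array, where the spot was marked as an outlier. None was saturated, and the filter on dim genes removed no member from any comparison.

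The members' median on each array was 8.74, 8.92, 7.43 and 7.15 in isotype thymocytes (replicates 1 to 4) and 6.88, 7.35 and 8.61 in anti-DLL4 thymocytes. It was 8.32, 8.85 and 8.86 in isotype DN cells and 8.18, 8.51 and 8.39 in anti-DLL4 DN cells. In DN1 cells it was 7.47 and 7.68 with the isotype antibody and 7.94, 6.83 and 7.17 with anti-DLL4. The antibody groups overlapped in all 3 populations. The spread within total thymocytes, where replicates differed by up to 1.77 in the isotype group and 1.74 in the anti-DLL4 group, was larger than the 0.44 between the means of those groups (8.06 ± 0.90, n = 4, and 7.62 ± 0.90, n = 3, mean ± SD). In DN cells the means were 8.68 ± 0.31 (SD, n = 3) and 8.36 ± 0.17 (SD, n = 3). In DN1 cells they were 7.57 ± 0.15 (SD, n = 2) and 7.31 ± 0.57 (SD, n = 3). Small and large subunit genes moved together, with large subunit medians lower on all 18 arrays, a difference that also rests on which probes each set has.

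**Figure D1:**
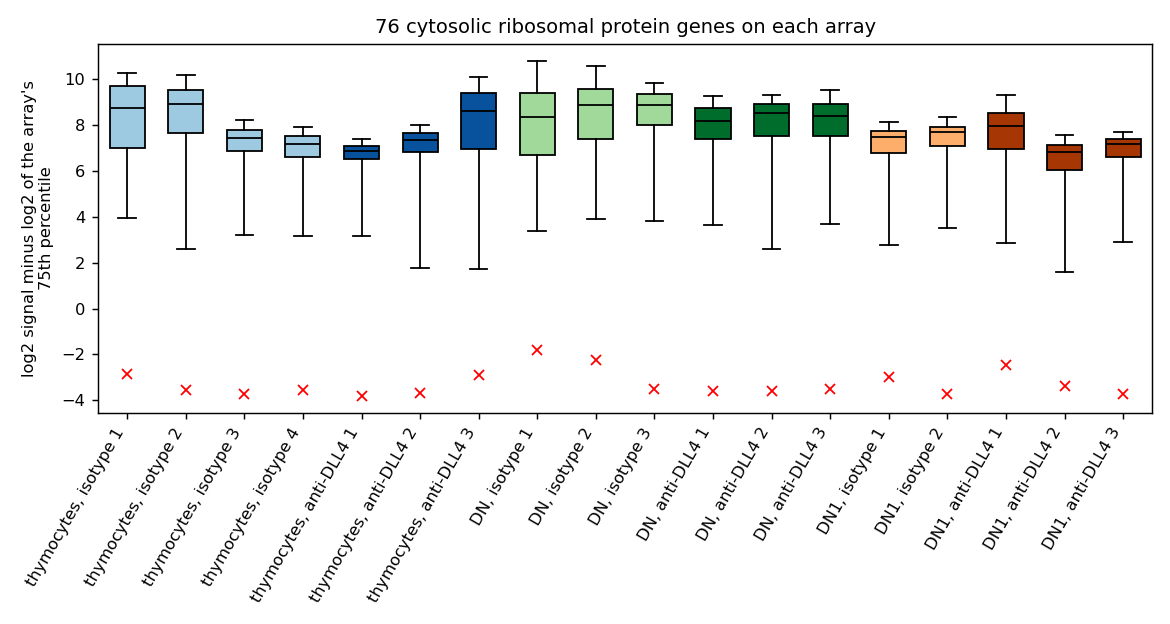
Box plots of the 76 ribosomal protein genes on each of the 18 arrays (x axis, grouped by population and antibody, with replicate numbers), in log2 signal minus log2 of the array's 75th percentile (y axis). Boxes span the quartiles with the median as a line, whiskers reach the lowest and highest gene, and red crosses mark the median of all genes. The member median ranges from 6.83 in anti-DLL4 DN1 replicate 2 to 8.92 in isotype thymocyte replicate 2, and the antibody groups overlap in each population.

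The member median moved with array strength. Over the 18 arrays, its Pearson r with log2 strength was -0.90 and Spearman's rho was -0.87. Without the 2 arrays farthest from the median strength r was -0.94, and after subtracting group means from both measures r was -0.86. Strength is part of the scale of the value, so some of this relation is built in. Before scaling, the members' median log2 signal spanned 2.60 units over arrays whose log2 strength spanned 4.05, and rose by 0.48 for each unit of strength. The relation was r = -0.85 with normexp background correction, -0.51 when each array was centred on the median of all genes and -0.03 after quantile normalization. The member median lay at the 99.5th to 99.8th percentile of all genes on every array. Quantile normalization gives a percentile the same value on all arrays, so an r near 0 there is largely fixed in advance. The relative medians given below for that setting share this limit. The level of these genes therefore cannot be read apart from the scaling, and group differences are given below relative to the median of all genes tested. This does not remove the relation with strength, given the r of -0.51 with arrays centred on the median of all genes.

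**Figure D2:**
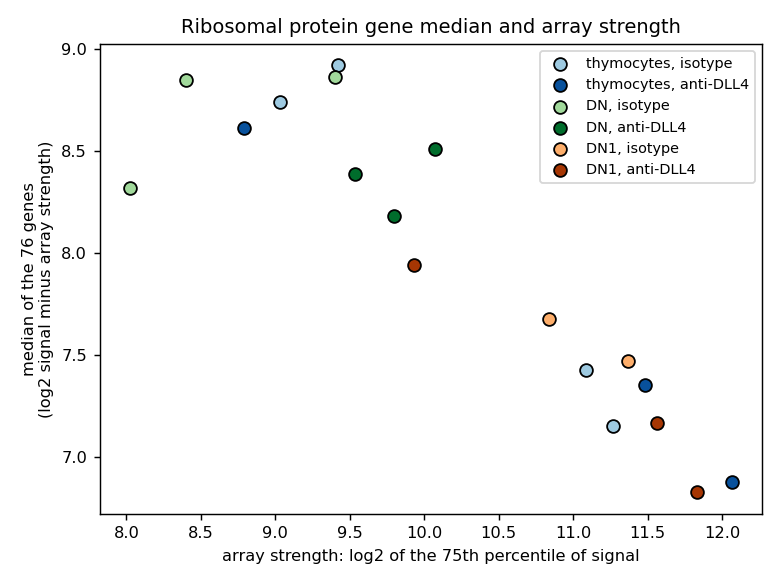
Scatter of the member median (y axis, log2 signal minus log2 strength) against array strength (x axis, log2 of the 75th percentile of signal), 1 point per array, coloured by group. Weak arrays lie high and strong arrays low, with r = -0.90 over 18 arrays, and isotype DN replicate 1 is the weakest array.

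To see how members differ among themselves, each array was also centred on its own member median. On that scale, 56 of 76 members (73.7%) had an SD under 0.5 log2 units over the 18 arrays, and the members' median SD was 0.34. The centring uses the members themselves, which lowers their SD. For comparison, 73 of 130 other genes at least as bright as the members' lower quartile (56.2%) and 276 of all 23353 genes in the model (1.18%) had an SD under 0.5, with median SDs of 0.47 and 1.18. The tightest members were Rps7 (SD 0.11), Rpl22 (0.12) and Rps24 (0.13). Rps7 and Rpl22 bind MDM2 and RNA, respectively, outside the ribosome, and Rps24 is a gene of Diamond-Blackfan anaemia. The most variable were Rps9 (1.15), Rplp0 (1.13), Rps3a (1.04), Rpl31 (0.83) and Rpl18 (0.81).

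Rpl22, whose loss in mice blocks αβ T-cell development, had values of 8.97, 9.23, 7.78 and 7.49 in isotype thymocytes and 7.23, 7.39 and 8.64 in anti-DLL4 thymocytes. It had 8.55, 9.19 and 9.29 in isotype DN cells and 8.37, 8.76 and 8.68 in anti-DLL4 DN cells. In DN1 cells it had 7.60 and 7.83 with the isotype antibody and 8.33, 7.01 and 7.39 with anti-DLL4. The antibody groups overlapped in every population. Its value minus the array's member median lay between 0.02 and 0.43 on the 18 arrays. A further Rpl22 probe averaged 2.84 against 8.21 for the brightest and had r = -0.10 with it over the arrays, so the statements on Rpl22 hold for the brightest probe only.

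Rps9, a small subunit protein of the mRNA entry region, had a mean of 5.91, away from the members' middle, and the largest SD after centring. Its values were 3.96, 5.86, 5.42 and 6.20 in isotype thymocytes and 6.08, 6.70 and 5.96 in anti-DLL4 thymocytes. It had 4.22, 5.41 and 6.63 in isotype DN cells and 6.49, 6.89 and 6.49 in anti-DLL4 DN cells. In DN1 cells it had 5.97 and 6.51, and 5.92, 5.46 and 6.15. It was lowest on isotype thymocyte replicate 1 and isotype DN replicate 1, and the antibody groups overlapped in all populations. Rps3a and Rps10, also of the small subunit, were likewise low on isotype DN replicate 1, with 5.42 and 4.79 there against 7.18 and 7.66 on isotype DN replicate 3.

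The probes behind these contrasting members are shown because each statement on a gene rests on its 60 bases. They are printed 5′ to 3′ in lower case, with no part set off, and lie in mm8 at chr12:29217375-29217434 (Rps7, minus strand), chr4:151173849-151173908 (Rpl22, plus), chr7:3307742-3307801 (Rps9, plus) and chr17:27361729-27361788 (Rps10, minus). For Rps3a, the array's annotation places only part of the probe, on chromosome 3.
Rps7: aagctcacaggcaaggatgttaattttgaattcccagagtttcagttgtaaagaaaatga
Rpl22: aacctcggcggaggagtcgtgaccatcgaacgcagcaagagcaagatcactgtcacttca
Rps9: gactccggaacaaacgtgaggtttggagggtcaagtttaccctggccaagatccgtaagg
Rps10: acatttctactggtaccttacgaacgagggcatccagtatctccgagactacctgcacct
Rps3a: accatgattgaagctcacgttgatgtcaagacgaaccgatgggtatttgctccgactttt

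A member's deviation from the member median followed array strength in a way that went with its mean signal. Among the 38 members with the higher mean values (7.98 to 8.99), the correlation of the centred value with log2 strength was below 0 in 38. Among the 38 with the lower means (3.37 to 7.94), it was above 0 in 36. Across the 76 members, which share arrays and are not independent, mean value and this correlation had r = -0.70 and rho = -0.87. Rps16, with the highest mean (8.99), had a correlation of -0.91, and Rpl13a, with a mean of 6.51, had 0.92. The GC content of the probe had r = 0.13 with this correlation. A single principal component held 63.4% of the variance of the 74 members without missing values, and its scores had a correlation of size 0.92 with log2 strength. All these values were centred on the median of the same members, so part of the split and of the component is built in. The SD of the members within an array was 0.87 on the strongest array and 1.82 on the weakest.

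**Figure D3:**
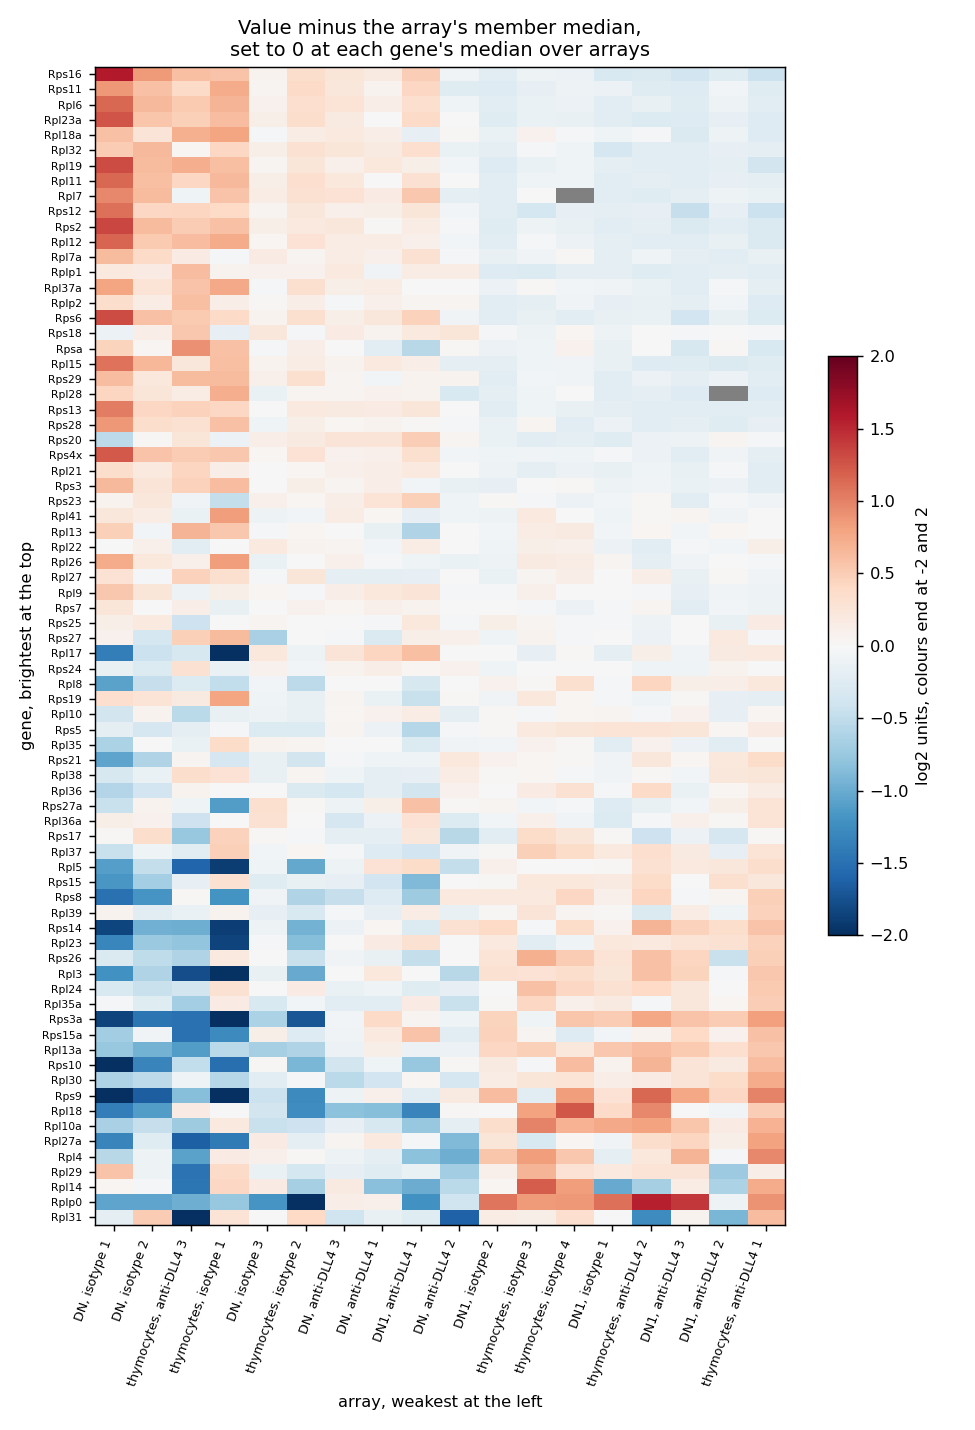
Heat map of the 76 genes (rows, highest mean signal at the top) on the 18 arrays (columns, weakest at the left): value minus the array's member median, with each gene set to 0 at its median over arrays, in log2 units, red high and blue low, grey for the 2 missing values. On weak arrays the upper rows are red and many lower rows, such as Rps9, Rps3a and Rps14, are blue, while Rps7 and Rpl22 stay near 0.

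**Figure D4:**
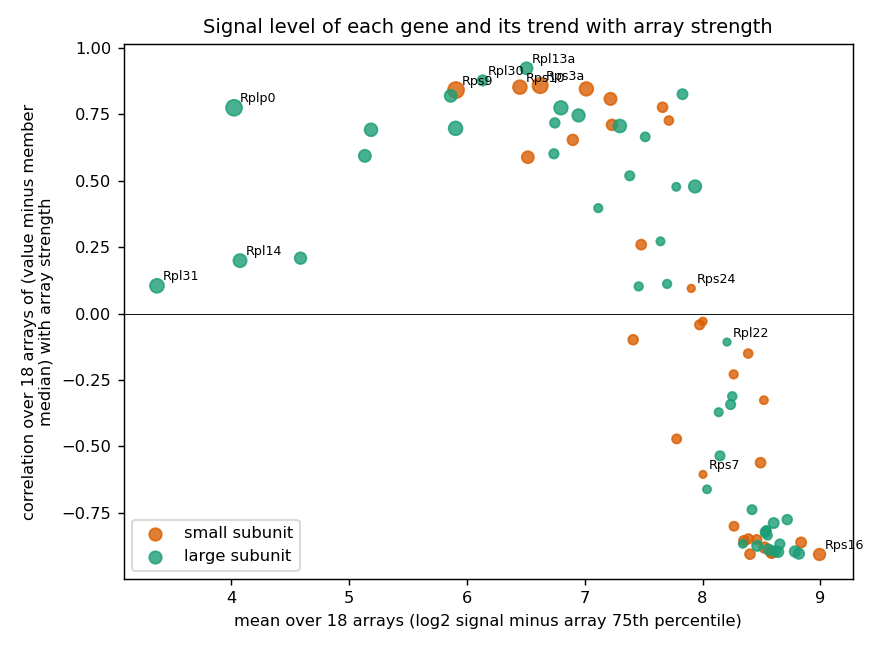
Mean value of each member over 18 arrays (x axis, log2) against the correlation of its centred value with log2 array strength (y axis), coloured by subunit, with larger points for a larger SD over arrays. All 38 members with means from 7.98 to 8.99 lie below 0 and 36 of the 38 with lower means lie above it. Centring on the members' own median builds in part of this split.

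The stalk proteins Rplp0, Rplp1 and Rplp2, which recruit translation factors to the large subunit, were read unequally. Rplp1 and Rplp2 had means of 8.54 and 8.53 and centred SDs of 0.24 and 0.22. The only probe named Rplp0 averaged 4.02. Its values were 4.12, 2.60, 4.41 and 4.14 in isotype thymocytes and 3.91, 5.05 and 3.77 in anti-DLL4 thymocytes. It had 3.40, 3.92 and 3.82 in isotype DN cells and 4.41, 4.24 and 4.65 in anti-DLL4 DN cells. In DN1 cells it had 4.69 and 4.88, and 2.86, 2.86 and 4.71.

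After these values were seen, 2 probes named Arbp were picked out, the brighter of which carries an accession that RefSeq gives to Rplp0. They are outside the name rule. On chromosome 5 of mm8 (plus strand), the Rplp0 probe lies at chr5:115821920-115821979, and the Arbp probes lie downstream at chr5:115822413-115822472 and chr5:115824445-115824504. In that order their means were 4.02, 7.72 and 8.72. In isotype and anti-DLL4 DN cells, the most downstream probe had values of 10.62, 10.15 and 9.54, and of 8.92, 9.18 and 9.14. These were lower with anti-DLL4, whereas those of the Rplp0 probe in DN cells were higher. Fitted differences (anti-DLL4 minus isotype) in DN cells were 0.72 (SE 0.60, adjusted p = 0.415) for Rplp0 in limma. For the most downstream Arbp probe the difference was -1.03 (SE 0.77, adjusted p = 0.369). These probes of 1 gene thus gave different signs, and neither passed the test. The nearer Arbp probe had overlapping values, 7.68, 8.40 and 8.43 in isotype and 7.91, 8.02 and 8.31 in anti-DLL4 DN cells. The upstream pair of probes is shown, Arbp being the nearer of the downstream ones and not the probe of the fitted difference.
Rplp0: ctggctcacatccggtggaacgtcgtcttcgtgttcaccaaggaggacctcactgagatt
Arbp: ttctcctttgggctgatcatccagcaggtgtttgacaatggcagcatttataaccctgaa

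Among all members, 52 had more than 1 probe. Of their 81 further probes, 60 had the same sign of difference as the brightest probe in thymocytes, 55 in DN cells and 65 in DN1 cells. RefSeq names pseudogenes or related sequences for 61 of the 76 members, and a probe may also read such copies. In the 50 members with several probes located on 1 strand within 50 kb, the brightest was the one farthest along the transcript in 29.

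Anti-DLL4 treatment changed none of the 76 members past the threshold in total thymocytes (limma, 6 group means over 18 arrays, Benjamini-Hochberg adjusted p under 0.05 over all genes), where 1.52% of 21122 genes were called. The members' median difference, anti-DLL4 minus isotype, was -0.51 against -0.47 for all genes, so -0.04 relative to them, and 35 of 76 members lay above the median of all genes. At an unadjusted p under 0.05 there were 3 members, against 15.6% of all genes. These were Rpl31 (-1.80, SE 0.62, adjusted p = 0.171), Rpl14 (-1.35, SE 0.49, adjusted p = 0.192) and Rpl29 (adjusted p = 0.311), all lower with anti-DLL4. Rpl29 is named only for this count. Rpl31 and Rpl14 are large subunit proteins with dim probes, and a further Rpl31 probe had a difference of -0.70.

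Rpl14 had values of 5.44, 4.54, 4.92 and 4.26 in isotype thymocytes and 3.91, 2.97 and 3.45 in anti-DLL4 thymocytes. Rpl31 had 4.69, 5.0, 3.22 and 3.16 in isotype and 3.17, 1.78 and 1.72 in anti-DLL4 thymocytes, with overlapping groups. At the other end, Rps9 (0.89, adjusted p = 0.496), Rps3a (0.51) and Rplp0 (0.42) had the highest differences. Intervals were wide for members of known extra roles. For Rps6, the phosphorylated target of S6 kinase, the difference was -0.49 (95% limits -1.98 to 0.99). For Rps19, the gene most often mutated in Diamond-Blackfan anaemia, it was -0.70 (-1.96 to 0.56). For Rpl5 and Rpl11, which hold MDM2 in check with 5S RNA, it was -0.03 (-1.03 to 0.98) and -0.64 (-2.08 to 0.80). The sign of the members' median relative to all genes turned to 0.33 with quantile normalization, 0.04 with the mean of all probes and 0.16 with strength as a covariate, and within slides it was -0.59, -0.72 and 0.73.

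In DN cells, none of the 76 members was called in limma, where 4.32% of 21051 genes were, and none had an unadjusted p under 0.05, against 30.7% of all genes. The members' median difference was -0.41 against -0.68 for all genes, 0.27 relative to them, with 58 of 76 members above the median of all genes. It was 0.78 within the slide that holds both antibodies, and negative (-0.18) in the fit restricted to genes well above background on every array compared. The highest differences were those of Rps9 (1.20, SE 0.64, adjusted p = 0.208), Rps3a (1.08, SE 0.52, adjusted p = 0.169) and Rps10 (0.75, SE 0.58, adjusted p = 0.384). The lowest were those of Rpl31 (-1.15), Rps16 (-1.04) and Rps2 (-0.94). Rps3a had 5.42, 6.33 and 7.18 in isotype and 7.51, 7.38 and 7.28 in anti-DLL4 DN cells. These differences depended on which isotype DN array was left out. Without replicate 1, the weakest, they were 0.60 for Rps9, 0.63 for Rps3a and 0.02 for Rps10 (adjusted p = 0.627, 0.536 and 0.988). Without replicate 3, the strongest, they were 1.81, 1.52 and 1.45 (adjusted p = 0.046, 0.043 and 0.047), and these 3 of 76 members (3.95%) were called. In that fit 27.9% of all genes were called, and 6.38% were called higher, so the members' share was below that of all genes.

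The groups of DN arrays differ in strength without overlap, and these members have positive correlations with strength after centring (0.84, 0.86 and 0.85). With strength as a covariate in the fit of all 18 arrays, the differences were 0.82 for Rps9, 0.75 for Rps3a and 0.64 for Rps10 (adjusted p = 0.484, 0.391 and 0.587). Isotype DN replicates 1 and 2 also differed from replicate 3 in erythroid markers, given below. The part of strength or of these other cells in the fits without replicate 1 or replicate 3 was not tested. Rps6 had a difference of -0.88 (95% limits -2.47 to 0.71), Rpl22 -0.41 (-1.62 to 0.81) and Rpsa, also known as the laminin receptor, -0.53 (-2.04 to 0.98). Rps27a, made as a ubiquitin fusion, had -0.30 (-1.60 to 1.00), and Rps4x, on the X chromosome, -0.88 (-2.41 to 0.64).

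In DN1 cells none of the 76 members was called in limma, where 0.0992% of 22184 genes were, and none had an unadjusted p under 0.05, against 4.68% of all genes. The members' median difference was -0.22 against -0.01 for all genes, -0.21 relative to them, and 6 of 76 members lay above the median of all genes. The relative median stayed below 0 in each alternative fit and scaling of this comparison, from -0.39 with slide as a block to -0.03 with normexp. Within the slides that hold both antibodies it was -0.31 and -0.35, with 3 and 0 of 76 members above the median of all genes. Rplp0 (-1.31, SE 0.67), Rpl18 (-0.92) and Rpl10a (-0.83) were lowest, and Rpl28 (0.08, from 2 of the 3 anti-DLL4 arrays), Rpl17 (0.07) and Rps20 (0.07) highest, each at adjusted p = 1.00. For Rps6 the difference was -0.10 (95% limits -1.88 to 1.67) and for Rpl38, which acts on translation of Hox mRNAs, -0.23 (-1.69 to 1.23). With 2 isotype arrays these limits leave a wide range of differences.

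The 3 treatment effects were also compared with each other, each pair sharing a model and, with DN or thymocytes in 2 of the comparisons, the arrays of that population. No member was called in limma in any of them. For DN minus thymocytes, 0.0222% of all genes were called and 8.39% had an unadjusted p under 0.05, against 0 members. The members' median was 0.50 relative to all genes, with 73 of 76 above, but -0.17 after quantile normalization and -0.05 under the strict filter. For DN1 minus thymocytes, 0.118% and 6.87% of all genes passed these marks, against 0 members, with a relative median of -0.19 (0.59 with normexp). For DN1 minus DN, 0.209% and 12.3% passed, against 0 and 1 member, Rplp0 (-2.03, adjusted p = 0.387). The relative median was -0.51, and 0.05 under the strict filter.

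**Figure D5:**
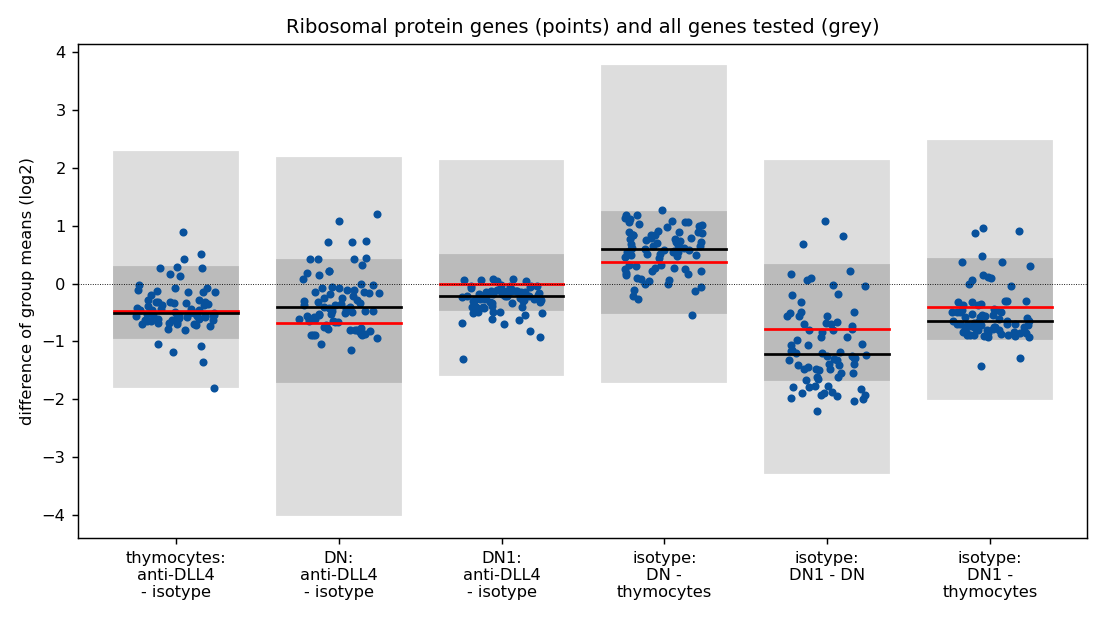
Differences of group means (y axis, log2) in the 3 treatment and 3 isotype population comparisons (x axis). Blue points are the 76 members with a black line at their median, the light and dark grey boxes span the 5th to 95th and the 25th to 75th percentiles of all genes tested, and the red line is their median. No member was called in any of the 6, and in DN1 cells 70 of 76 points lie below the red line.

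Between populations of isotype-treated mice, no member was called in limma either. In DN against thymocytes, 1.28% of 21844 genes were called and 21% had an unadjusted p under 0.05, against 0 members at both marks. The members' median was 0.24 relative to all genes, and turned negative with normexp (-1.03), without a filter (-0.02), with the mean of all probes (-0.06) and with strength as a covariate (-0.19). In DN1 against thymocytes, 1.48% of 21353 genes were called and 14.3% passed the unadjusted mark, against 0 members and 1, Rpl14 (-1.42, adjusted p = 0.256). The relative median was -0.24, but 0.48 after quantile normalization, 0.02 with slide as a block and 0.01 with strength as a covariate.

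In DN1 against DN cells, 1.34% of 21948 genes were called and none of the members, while 18 of 76 members passed the unadjusted mark of p under 0.05, a share of 23.7% against 20.8% of all genes. The median difference was -0.78 for all genes and -1.22 for the members, so a lower value was not particular to the members. All 18 were lower in DN1 cells, from Rps16 (-2.21, adjusted p = 0.203) to Rpl36a (-1.44, adjusted p = 0.225). The list includes Rps2, Rps4x, Rps6, Rpl11 and Rpl19. Rpl36a is named only as the end of this range. Rps16 had 8.04 and 8.33 in isotype DN1 and 10.79, 10.58 and 9.81 in isotype DN cells. The DN1 arrays were also stronger, at 1832 and 2643 against 260.2 to 675.5. Relative to all genes the members' median was -0.45, but 0.25 after quantile normalization, 0.05 with the mean of all probes and 0.18 with strength as a covariate. The part of strength in these values was not tested further.

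Centred on the member median, which asks whether a gene left the others, no member was called in limma in the 6 comparisons. The share of all genes called on that scale was 0.881% in thymocytes, 2.42% in DN and 0.122% in DN1 cells for treatment. It was 2.2%, 2.07% and 0.834% for isotype DN against thymocytes, DN1 against DN and DN1 against thymocytes. At an unadjusted p under 0.05, 1 member passed in thymocytes, Rpl31 (-1.35, adjusted p = 0.504), against 9.74% of all genes, and none in DN cells (23.6%) or DN1 cells (4.01%). None passed in isotype DN against thymocytes (21.4%) or DN1 against thymocytes (9.19%). Rplp0 alone passed in isotype DN1 against DN (2.18, adjusted p = 0.314; 14.9% of all genes). For treatment, 64, 53 and 73 of the 76 members lay within 0.5 log2 units of 0 on this scale in thymocytes, DN and DN1 cells. Rps7 had differences of 0.09 (95% limits -0.70 to 0.88), -0.04 (-0.88 to 0.81) and -0.04 (-0.99 to 0.90).

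Other genes of the ribosome and of translation were read from lists chosen with earlier results known, and none of them passed the adjusted threshold in limma in the 3 treatment comparisons. Of 10 ribosomal proteins or paralogs outside the name rule, 7 were on the array by name. In thymocytes, 2 of these 7 had an unadjusted p under 0.05 in limma, the paralogs Rps27l (-1.30, adjusted p = 0.198) and Rpl7l1 (-1.15, adjusted p = 0.289). Relative to all genes, their differences were -0.83 and -0.68. Rpl22l1, the paralog of Rpl22 that Rpl22 itself represses, had a difference of 0.81 in thymocytes (limma, adjusted p = 0.447). Relative to all genes it had 1.28 in thymocytes, 0.73 in DN cells and -0.26 in DN1 cells. The 34 ribosome biogenesis genes on the array, which make and assemble rRNA, had median differences relative to all genes of -0.04, 0.10 and -0.52 in thymocytes, DN and DN1 cells. Those of 34 translation factors were 0.14, 0.60 and -0.30, and those of 75 mitochondrial ribosomal proteins -0.26, 0.50 and -0.22. The members' own values were -0.04, 0.27 and -0.21. In thymocytes, 15 of 75 mitochondrial ribosomal proteins, 7 of 34 biogenesis genes and 2 of 34 translation factors had an unadjusted p under 0.05, against the 15.6% of all genes given above.

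Markers of several cell types, early T cells among them, differed between the antibody groups, mainly in thymocytes and DN cells. In bulk samples fewer cells of a type cannot be told apart from less RNA per cell. Of all genes, 1.52% were called in thymocytes, 4.32% in DN cells and 0.0992% in DN1 cells (limma, either direction). The mean of 9 B-cell markers ranged from -2.80 to -2.01 in isotype and from 0.45 to 1.72 in anti-DLL4 thymocytes, and 6 of 9 rose (limma). In DN cells it ranged from -1.18 to -0.29 and from 2.99 to 3.70, with 8 of 9 higher. In DN1 cells it ranged from 1.86 to 2.92 and from 3.04 to 3.55, with none called. NK-cell markers rose in 4 of 6 in both thymocytes and DN cells. Dendritic-cell markers rose in 2 of 6 in thymocytes (H2-Aa and Cd83) and 4 of 6 in DN cells (these and Irf8 and Itgax). Which cells these transcripts came from was not tested. Monocyte and macrophage markers rose in 1 of 5 and 3 of 5. In DN1 cells none of the NK, dendritic or monocyte markers was called. Their median differences relative to all genes there were -0.63, -0.17 and -0.41. The mean of 5 erythroid markers was 2.43, 3.04 and -2.26 on isotype DN replicates 1 to 3. It ran from -3.99 to -2.07 in anti-DLL4 DN cells, where Hbb-b1 was called lower (-3.98, adjusted p = 0.048, limma). Double-positive thymocyte markers, at 3.71 to 3.93 in isotype DN cells although the sort selects against CD4 and CD8, were at 1.72 to 2.12 with anti-DLL4, and 2 of 8 fell. The mean of 9 early T-cell markers ran from 2.96 to 3.85 in isotype and from 1.06 to 2.73 in anti-DLL4 DN cells. There 2 of 9 fell, Notch3 and Ptcra, and none was called in thymocytes or DN1 cells. Cell-cycle genes, which go with ribosome production in dividing cells, were at 4.17 to 4.82 in isotype and 3.12 to 3.54 in anti-DLL4 thymocytes, with none of 7 called. The part of these shifts in the ribosomal protein values was not tested.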

How the data were processed

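RNA of 18 samples was amplified in 2 rounds and hybridised to 1-colour arrays, per the labels. The deposited intensity of each spot was background-subtracted within its array and not normalized between arrays, per the file headers (Agilent software version 9.5.3.1). Other deposited columns were flags for background, saturation and outliers, and a value table holding a ratio, in which log2 values lay within 0.05 of the probe-centred scanner values for 69.7% to 70.7% of probes per array. Its direction is that of the intensity, and what the authors divided the rest by stays unknown. Its column medians ran from 0.639 to 1.42. Positions are mm8, per the file headers.

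From the intensities, log2 signal minus the array's 75th percentile was computed, outlier spots were left out, spots of a probe averaged and the brightest probe kept per gene. The 23353 genes with a signal clearly over background on 2 or more arrays were fitted with limma 3.58.1 in R 4.3.3, and each comparison then tested the genes that met this mark among its own arrays, with p-values adjusted over them. The member median is a score over chosen genes, so no p is given for it. Arrays lay on 6 slides. No 2 arrays held the same values (highest correlation 0.958). The precision is limited by 2 to 4 arrays per group. Gene symbols are the array's, and RefSeq gave the same symbol for 70 members, another for 1 (Rps3a) and none for 5. Named genes are 18 members picked by role, the 3 highest and 3 lowest per comparison against the member median, members past the threshold, and the 5 most and 3 least variable. The script was tested on simulated data. Figures were drawn with matplotlib 3.10.9. The members, lists and tests were chosen with earlier results of these data known.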

Additional observations from a re-analysis of the deposited data

Results flagged for a closer look

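In the group of 4 isotype thymocyte arrays, 4 of 72 checked values stood apart from the other 3 arrays by Dixon's criterion, which chance meets in about 1 in 20 groups. On replicate 1, the value minus the member median was -1.93 for Rpl17 (the others from -0.04 to 0.15), -1.55 for Rps27a (-0.50 to -0.42) and 1.11 for Rpl28 (0.30 to 0.43). On replicate 2, the level of Rplp0 was 2.60 against 4.12 to 4.41.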

How the results depend on the processing

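In 33 alternative fits, no member was called in any of the 9 comparisons, except that 3 members were called in DN cells without isotype DN replicate 3, where 27.9% of all genes were called. Leaving out each array in turn gave 0 to 3 members in DN cells, and 1.71% to 7.02% of all genes when another array was left out. The members' median relative to all genes moved by more than the spread between replicates in these cases. With quantile normalization it was -0.17 for the difference of effects between DN cells and thymocytes, 0.25 for isotype DN1 against DN and 0.48 for isotype DN1 against thymocytes. With normexp it was 1.13 for treatment in DN cells, 2.07 for the effect in DN cells less that in thymocytes, 0.59 and -1.45 for the effect in DN1 cells less those in thymocytes and DN cells, -1.03 for isotype DN against thymocytes and -1.27 for isotype DN1 against thymocytes. Within slides it was -0.72 and 0.73 for treatment in thymocytes (slides 2 and 4) and 1.41 for isotype DN against thymocytes (slide 6). The correlation of the member median with array strength was -0.51 with each array centred on the median of all genes. After quantile normalization it was -0.0311, where a value near 0 is largely fixed in advance. The cause of these shifts was not tested. Leaving out each array in turn gave -0.26 to 0.20 for treatment in thymocytes, 0.01 to 0.41 in DN cells and -0.35 to -0.03 in DN1 cells. Replicate numbers did not pair the samples, with correlations of same-numbered deviations from -0.233 to 0.388, and with the replicate block no member was called and the treatment medians were -0.26, 0.27 and -0.25. Strength as a covariate, an intensity trend and leaving out the 2 weakest isotype DN arrays were added after seeing the data.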
